A study of Mus musculus with 6 samples.

Results

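The unannotated splice variants described here are the isoforms of a deposited table of transcript levels that carry class code j. Cufflinks gives this code to an assembled transcript that shares at least 1 splice junction with an annotated transcript but differs from it elsewhere; code = marks a match to an annotated transcript. Of the 50829 isoforms in the table, 5467 (10.8%) had class j and 45328 (89.2%) had class =, with 31 of class c and 3 of class e. The class j isoforms fell under 3791 of 17027 gene symbols, and 3684 symbols held both classes. The comparisons below use the 3367 of these genes with a mean of at least 5 FPKM (a level scaled to transcript length and to the mapped fragments of the library) over all libraries, which hold 4990 class j and 16698 class = isoforms.

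The samples were retinal ganglion cells (RGCs), the neurons whose axons form the optic nerve, from wild-type C57/6NCrl mice. Each of the 3 ages gave 2 libraries: E18 (embryonic day 18), P5 (postnatal day 5) and Adult (8 weeks). The P5 libraries have no replicate number in the table and are called library a and library b. The labels describe purification by immunopanning for Thy1, a surface antigen of RGCs, after panning steps against macrophages and amacrine cells, and polyA-selected RNA read as pairs of 100 bases. No treatment or genetic change is named for any group, and nothing in the labels ties the paired libraries to different animals, so the tests weigh a difference only against library-to-library spread, which may be technical. Read counts are not part of the table, and the depth behind a value is unknown.

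Alternative splicing joins different exons of one gene into different mRNAs. Neurons use it heavily: families of RNA-binding proteins, among them the SR proteins, hnRNPs, Celf, Mbnl, Nova, Rbfox and Ptbp proteins, select or repress exons, and many exons switch as neurons mature. Splicing factor genes themselves make transcripts that keep an intron or take up an extra exon, and such transcripts are often degraded or held in the nucleus.

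The Adult libraries differed from the younger ones in cell type markers, and this touches every comparison with Adult below. Of 25 RGC markers 24 were listed, and their summed level was 5311 to 6120 FPKM in the 4 younger libraries but 909 and 706 FPKM in the Adult libraries. Rod markers (19 of 21 listed) summed to 354 to 399 FPKM in the younger libraries, to 7426 in Adult replicate 1 and to 1030 in Adult replicate 2. Gnb1, which is not specific to rods, made up 346 to 389 FPKM of the younger sums, and the median rod marker was at 0.0639 to 0.275 FPKM before and at 211 and 24.4 FPKM in Adult. The median bipolar marker (14 of 14 listed) was at 0.146 to 0.253 FPKM before and at 12.2 and 9.84 FPKM in Adult. The sum of the bipolar markers was not higher in Adult than at E18. It was 260 and 256 FPKM at E18, 139 and 152 at P5, then 200 and 185 in Adult. Amacrine markers (12 of 13 listed) summed to 869 to 1218 FPKM before and 1724 and 2084 FPKM in Adult. The median amacrine marker was at 0.682 to 2.90 FPKM before and at 63.3 and 94.1 FPKM in Adult. Müller glia and astrocyte markers (11 of 12 listed) summed to 206 to 244 FPKM before and 1538 and 1845 FPKM in Adult. Progenitor markers summed to 152 FPKM in E18 replicate 1 and to 13.5 in E18 replicate 2, to 10.6 and 12.7 FPKM at P5 and to 97.6 and 82.9 FPKM in Adult. Microglia markers were nearly absent from the table, with 1 of 12 listed. Differences within RGCs and differences between the cell types sampled cannot be told apart here, and the part of these markers in the results was not tested. In bulk samples, fewer cells of a type and less RNA per cell cannot be told apart.

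What a class j isoform adds or leaves out is not written in the table, but its length can be set against that of the nearest annotated transcript, which was found in the GENCODE annotation of GRCm38 (mm10) for 5354 of the 5467 isoforms (97.9%). The class j isoforms were longer than that transcript in 49.2% and shorter in 50.6% of cases, and 33.5% differed by 1000 bases or more. A difference within 10 bases was found for 2.09% of class j isoforms and for 94.5% of class = isoforms. The length missing was exactly that of 1 internal exon in 154 cases. The length gained was exactly that of 1 intron of the nearest transcript in 164 cases, and exactly that of 1 exon that the annotation places in another transcript of the gene in 69 cases. After a shift of the same lengths by 1, 2, 5, 10 or 50 bases, the matches numbered 37 to 60 for exons left out, 10 to 19 for introns kept and 1 to 6 for exons added. The matches by exact length therefore exceeded those at shifted lengths for each kind of segment, and a part of the matches to exons left out is of the size that unrelated lengths gave. A difference of exactly 3 bases shorter, which a splice acceptor shifted by 1 codon would give, was found for 18 isoforms, against 0 to 10 at any other single difference from 20 bases shorter to 20 longer.

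**Figure D1:**
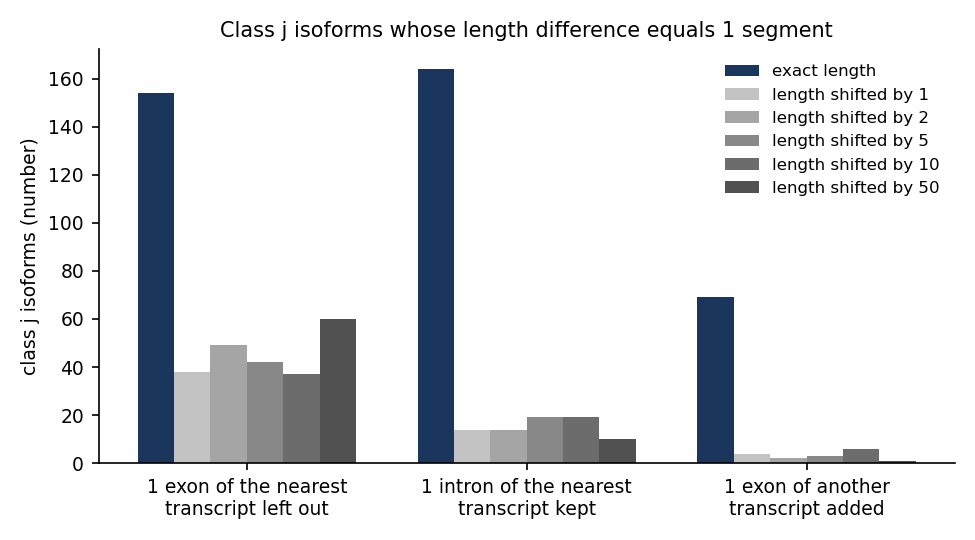
Number of class j isoforms (y axis) whose length differs from the nearest annotated transcript by 1 exon left out, 1 intron kept or 1 exon of another transcript added (x axis), for the exact length (dark bars) and for lengths shifted by 1 to 50 bases (grey bars). The exact lengths gave 154, 164 and 69 isoforms, more than any shifted length.

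The exons behind some of these matches are given here as examples. Of the 154 matches to an exon left out, 127 were to a coding exon, and 55 of these 127 had a length that is a multiple of 3. Among all internal coding exons of the nearest transcripts, 40.5% had such a length. The exons below come from the GENCODE transcripts of GRCm38, capitals mark the exon and lower case the 12 bases that flank it in the mature transcript, and a match in length does not show the structure of the isoform. Syp encodes synaptophysin, a membrane protein of synaptic vesicles, and Ube2j1 a ubiquitin-conjugating enzyme of the endoplasmic reticulum; both meet the rule for named genes, and their class j isoforms lack the length of 1 internal coding exon. Exon 4 of Syp (199 bases, plus strand of chrX:7644101-7644299) and exon 7 of Ube2j1 (120 bases, plus strand of chr4:33045080-33045199) are shown. The length of the Ube2j1 exon is a multiple of 3 and that of the Syp exon is not.
Syp exon 4: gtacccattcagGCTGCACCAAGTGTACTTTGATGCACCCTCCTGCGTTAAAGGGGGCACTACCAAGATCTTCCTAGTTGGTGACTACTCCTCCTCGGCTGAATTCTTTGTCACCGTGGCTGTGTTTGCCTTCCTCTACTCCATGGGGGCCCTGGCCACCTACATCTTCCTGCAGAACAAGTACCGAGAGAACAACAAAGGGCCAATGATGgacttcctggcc
Ube2j1 exon 7: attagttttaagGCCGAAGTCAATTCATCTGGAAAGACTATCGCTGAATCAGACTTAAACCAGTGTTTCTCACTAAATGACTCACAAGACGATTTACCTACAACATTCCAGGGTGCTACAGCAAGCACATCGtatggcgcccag
By level, the Syp isoform (2392 bases against 2591 of the annotated transcript) was among the most abundant of class j. It was at 47.8 and 56.6 FPKM at E18, 103 and 96.5 at P5, then 175 and 185 in Adult, and made up 53.3% and 58.2%, 61.1% and 60.5%, and 49.9% and 49.7% of the gene. The level was higher at each later age by FPKM, while on the TPM scale the difference between Adult and P5 was 0.09 (log2, adjusted p = 0.467, limma). The ratio of class j to class = did not pass the test in either comparison with Adult (adjusted p = 0.112 against P5 and 0.385 against E18, limma). The Ube2j1 isoform (3410 bases against 3530) was at or under 0.0740 FPKM in all younger libraries and at 12.1 and 5.88 FPKM in Adult, or 27.0% and 13.9% of the gene.

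A second set of exons was chosen after the values were seen: internal coding exons of at most 60 bases, present in another annotated transcript, whose length a class j isoform with a mean of at least 5 FPKM gains exactly. Such short exons are known in neurons as microexons when they are shortest. The lengths in Flna, Ipo11, Map2k4, Myo18a, Upf3b and Rpn2 are multiples of 3, so that adding them would keep the reading frame, and those in Mfsd6 (25 bases) and Ccser2 (40 bases) are not.
Flna exon 29, 24 bases, minus strand of chrX:74232967-74232990: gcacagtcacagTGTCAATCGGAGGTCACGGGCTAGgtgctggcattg
Mfsd6 exon 6, 25 bases, minus strand of chr1:52658699-52658723: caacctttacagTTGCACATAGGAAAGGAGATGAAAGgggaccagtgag
Ipo11 exon 22, 27 bases, minus strand of chr13:106857499-106857525: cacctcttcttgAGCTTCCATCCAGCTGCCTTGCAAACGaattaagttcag
Map2k4 exon 2, 33 bases, minus strand of chr11:65775733-65775765: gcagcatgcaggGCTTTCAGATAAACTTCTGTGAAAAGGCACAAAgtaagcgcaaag
Myo18a exon 2, 36 bases, plus strand of chr11:77815856-77815891: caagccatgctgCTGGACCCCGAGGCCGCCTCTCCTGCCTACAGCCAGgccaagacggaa
Upf3b exon 5, 39 bases, minus strand of chrX:37099066-37099104: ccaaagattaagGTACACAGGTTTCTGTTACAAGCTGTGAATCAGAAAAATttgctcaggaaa
Ccser2 exon 6, 40 bases, minus strand of chr14:36885751-36885790: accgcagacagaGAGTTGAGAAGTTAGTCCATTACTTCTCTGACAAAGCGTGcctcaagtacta
Rpn2 exon 16, 48 bases, plus strand of chr2:157323223-157323270: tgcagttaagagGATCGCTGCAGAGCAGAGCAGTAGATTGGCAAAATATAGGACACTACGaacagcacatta
The isoform of Flna, the actin cross-linker filamin A, made up 27.2% and 33.8% of the gene at E18, 36.1% and 30.8% at P5, then 40.8% and 48.3% in Adult. For Mfsd6, a member of the major facilitator family of transporters, the isoform was 43.5% and 42.0% of the gene at E18, 81.8% and 76.4% at P5, then 76.2% and 62.3% in Adult. Its level rose from 9.20 and 10.1 FPKM at E18 to 36.6 and 28.5 FPKM at P5 (log2 change 1.65, SE 0.23, adjusted p = 0.0429, limma). The ratio of class j to class = was not called for Mfsd6 between these ages, and isoform calls in this comparison depended on single libraries, as given below. The isoform of Myo18a, an unconventional myosin, held 36.6% and 45.9%, then 51.4% and 43.2%, and 11.9% and 3.41% of its gene. In Map2k4, a kinase that activates the JNK and p38 pathways, the isoform held 57.6% and 45.4%, 60.5% and 61.1%, and 40.2% and 30.6%. The isoforms of Rpn2, a subunit of the oligosaccharyltransferase, and of Ccser2 kept within 47.8% to 54.4% and 62.2% to 72.0% in all 6 libraries. That of Upf3b, a factor of nonsense-mediated decay, ranged from 17.4% to 41.1%, with the P5 libraries far apart, and that of Ipo11, a nuclear import receptor, from 36.7% to 65.2%, with both P5 libraries inside the range of the Adult ones. Adult and younger shares did not overlap for Flna, Map2k4 and Myo18a.

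The class j isoforms were longer than class = isoforms over the whole table, with a median of 3251 bases against 1830. The classes also differed in annotated type: the nearest transcript was protein-coding for 90.0% of class j isoforms, while 52.7% of class = isoforms were protein-coding and 23.3% carried the annotated type of a retained intron, against 0.448% of the nearest transcripts of class j. The nearest transcripts of class j had a median of 13 exons and those of class = 5. Within a gene, the median class j length exceeded the median class = length in 81.2% of the 3367 tested genes. Over all 3367 genes, the median of this difference was 927.5 bases. Between the most abundant isoform of each class, the difference was smaller, with class j longer in 55.0% of genes and a median of 64 bases. A start group, the table's label for transcripts with a common start, was shared with a class = isoform by 71.8% of class j isoforms.

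Most genes had a single class j isoform. Of the 3791 symbols, 2664 held 1, 752 held 2, 260 held 3, 85 held 4, 15 held 5 and 15 held 6 or more. Hnrnpk, an RNA-binding protein of the hnRNP family, had the most with 10, and Adgrl3 (a latrophilin adhesion receptor), Ptprd (a receptor phosphatase of the synapse) and Zmynd11 followed with 8 each. The isoforms were mostly of low level: the median of the mean over 6 libraries was 1.18 FPKM for class j and 1.86 FPKM for class =. Values listed at 0 made up 10.7% of class j and 7.05% of class = values. In this table, every isoform reached at least 1.0 FPKM in some library, so weaker variants are outside what was compared.

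Summed over all isoforms, class j held 3.07% and 3.10% of all FPKM at E18, 3.22% and 3.37% at P5, then 1.83% and 1.67% in Adult. Isoforms under 300 bases held 10.5% to 12.9% of all FPKM in the younger libraries and 25.2% and 27.2% in Adult. Over isoforms of 300 bases or more alone, class j held 3.53% to 3.76% before and 2.44% and 2.29% in Adult, still lower. As a share of FPKM times length, class j held 5.97% to 6.23% in the younger libraries and 5.81% and 5.67% in Adult. Among the tested genes alone, class j held 10.2% to 10.9% of FPKM in the younger libraries and 11.4% and 11.5% in Adult. The direction of the Adult difference thus depended on the denominator.

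For each tested gene, the variant share is the percentage of the gene's summed FPKM held by its class j isoforms. The median gene had a variant share of 8.67% and 8.44% at E18, 7.14% and 8.26% at P5, then 8.59% and 8.64% in Adult, so the typical share was at about the same value at all 3 ages. Averaged over the libraries, 1090 genes (32.4%) were under 5%, 1464 (43.5%) from 5% to 20%, 640 (19.0%) from 20% to 50% and 173 (5.14%) at 50% or more. In 80 genes, class j held the majority in all 6 libraries, and in 3007 genes it did so in none. Some of the former rest almost wholly on unannotated forms: Tex2 had a share of 100% in 5 libraries and 95.8% in Adult replicate 2, and Arl1, a small GTPase of the Golgi, stayed between 91.5% and 95%. Both were chosen after their values were seen. Genes just inside the limit of 5 FPKM, such as Acads at 5.001 and D2hgdh at 5.01, had mean class j levels of 0.679 and 1.16 FPKM, and those just outside, such as Arr3 at 4.995 and Zfp873 at 4.98, had 0.513 and 1.22 FPKM.

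Although the median share hardly differed, the shares of single genes did. Between the libraries of an age, the median absolute difference in a gene's share was 1.70 percentage points at E18, 2.22 at P5 and 3.17 in Adult. Between E18 and P5 libraries it was 2.33 to 3.09 points, above the values within E18 and within P5 but under that within Adult. Between an Adult and a younger library it was 4.58 to 5.30 points, above every value within an age.

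**Figure D2:**
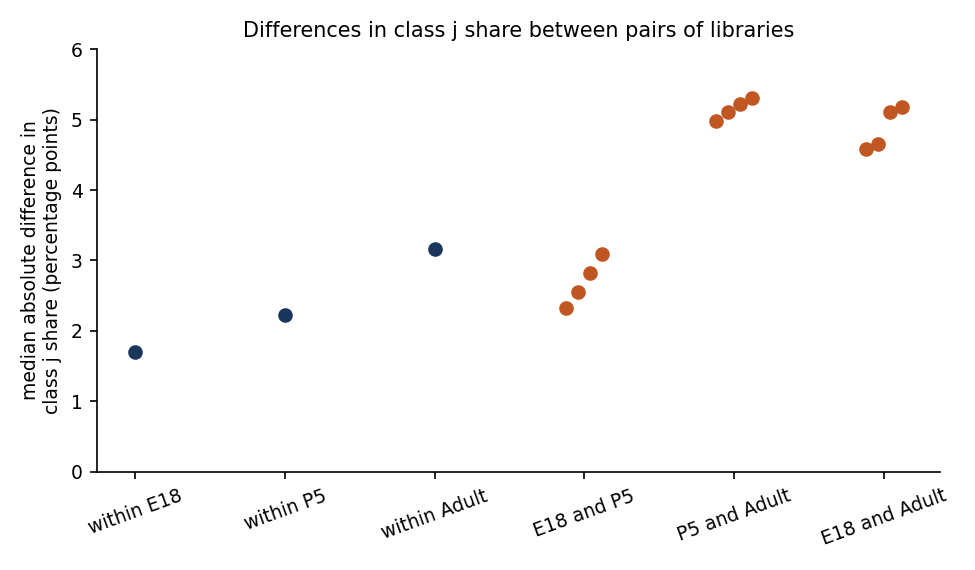
Median over 3367 genes of the absolute difference in class j share (y axis, percentage points) for each of the 15 pairs of libraries, grouped by age (x axis). Pairs within an age lie at 1.70 to 3.17 points, E18 with P5 at 2.33 to 3.09 and Adult with the younger ages at 4.58 to 5.30.

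The 15 class j isoforms with the highest mean level came from 13 genes, and in several of them the unannotated form was the main product. Ywhaz, a 14-3-3 signalling adaptor, had 3 class j isoforms that together held 76.0% to 86.4% of the gene in all 6 libraries. Its isoform of 2740 bases was at 114 and 137 FPKM at E18, 197 and 151 at P5, then 18.4 and 30.9 in Adult, while that of 2981 bases was at 124 and 116, 70.5 and 118, and 70.2 and 74.6 FPKM. The first was thus the lower of the pair in Adult and the higher at P5. Pafah1b1, which encodes the dynein regulator Lis1, had a variant share of 71.1% to 74.7% in the younger libraries and 55.1% and 48.9% in Adult. Its ratio fell from P5 to Adult (log2 change -1.39, SE 0.27, adjusted p = 0.0120, limma), and the adjusted p was 0.0574 without P5 library a and 0.0581 without P5 library b. Mdh1, the cytosolic malate dehydrogenase, held 55.4% to 70.7%, and the heat-shock cognate chaperone Hspa8 11.7% to 19.0%; neither ratio passed the test in any comparison.

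The ribosomal protein genes Rps19 and Rpl7 were also in this group, with variant shares of 58.3% to 68.0% and 32.7% to 49.7%. Their class j levels fell with their genes, Rps19 from 282 and 251 FPKM at E18 to 45.9 and 41.7 in Adult, and Rpl7 from 236 and 213 to 47.2 and 56.8 FPKM. The ratio of class j to class = did not pass the test for either gene (Adult against E18: log2 change -0.30, adjusted p = 0.499, for Rps19 and -0.53, adjusted p = 0.248, for Rpl7, limma). Ribosomal protein genes have processed pseudogenes of near-identical sequence, and how reads were split between copies is not stated, so these levels are uncertain. Dpysl3, a microtubule regulator of growing axons also known as CRMP4, carried 2 of the 15 isoforms. They summed to 362 to 408 FPKM in the younger libraries and to 3.48 and 2.79 FPKM in Adult. The whole gene was at 863 to 1011 FPKM before and 25.5 and 16.7 FPKM in Adult, and the variant share was 40.0% to 43.4% before and 13.7% and 16.7% in Adult.

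In Klc1, Aldoa and Bzw2, also among the 13 genes, isoform use differed between Adult and P5. Klc1, the kinesin light chain that links kinesin motors to cargo, kept a class j sum of 106 to 120 FPKM in all 6 libraries. Within that sum, the isoform of 2382 bases was at 106 to 120 FPKM in the younger libraries and at 42.1 and 49.2 in Adult, and the isoform of 2457 bases was listed at 0 in all 4 younger libraries and at 65.2 and 70.6 FPKM in Adult. The variant share of Klc1 was 23.1% to 27.8% before and 54.6% and 54.3% in Adult (log2 ratio change from P5 1.74, SE 0.25, adjusted p = 0.00404, limma). Aldoa, a glycolytic aldolase, had a variant share of 21.9% and 21.9% at E18, 41.7% and 37.8% at P5, then 3.08% and 2.76% in Adult. The whole gene was at 1442 and 1399 FPKM in Adult and at 308 to 462 before, while class j went from 170 and 116 FPKM at P5 to 44.3 and 38.6 (log2 ratio change -4.43, SE 0.26, adjusted p = 0.000188, limma). Bzw2 had shares of 66.8% and 70.9%, 91.5% and 79.6%, and 38.8% and 32.1% (Adult against P5: log2 ratio change -3.42, SE 0.46, adjusted p = 0.00326, limma). Gad1, the GABA-synthesising enzyme of amacrine cells and a marker of theirs, had class j levels at or under 2.41 FPKM in the younger libraries and 235 and 337 FPKM in Adult, where they made up 78.7% and 75% of the gene; its shares in the younger libraries rest on a gene level of 0.180 to 5.97 FPKM.

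Between E18 and P5, the variant ratio passed the test in 1 of 3367 genes (0.0297%). The ratio is log2 of summed class j FPKM + 1 over summed class = FPKM + 1, tested with limma over all 6 libraries and called at a Benjamini-Hochberg adjusted p under 0.05. An unadjusted p under 0.05 was found for 437 genes, and 272 genes (8.08%) had shares that did not overlap between the ages and differed by at least 10 points, with no test. The called gene was Prdm4, a zinc-finger transcription regulator: its class j isoform was at or under 0.00131 FPKM in E18 and Adult libraries and at 5.57 and 5.97 FPKM at P5, which is 33.2% and 27.0% of the gene (log2 ratio change 3.55, SE 0.29, adjusted p = 0.0149). The call ended when any 1 of the 6 libraries was left out, with adjusted p from 0.0860 (without Adult replicate 2) to 0.279 (without P5 library a). On simulated data with 200 genes changed, the same fit recovered 70% of those changed by a log2 of 2 in this comparison and 0% of those changed by 1. A lack of calls therefore does not show that the ratios were equal. The simulation does not set a limit for the data, where Clk1 was called between P5 and Adult at 0.919 (adjusted p = 0.0373, limma).

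At the level of single isoforms, 23 of 3115 class j isoforms tested had a higher level at P5 (0.738%, against 0.804% of all 34941 isoforms tested) and 21 a lower one (0.674%, against 0.824%), together 1.41% against 1.63%. Scaling the values to TPM gave 57 higher and 25 lower, and leaving out any 1 library gave 0 or 1. Chosen after their values were seen, the isoforms called at P5 included variants of neuronal genes. Dlg2, a scaffold of the postsynaptic density, had an isoform at 1.02 and 0.886 FPKM at E18, 13.2 and 9.56 at P5, then 16.4 and 23.6 in Adult, or 2.10% and 2.29%, then 10.9% and 10.7%, then 14.3% and 18.1% of its gene (log2 change P5 against E18 2.65, SE 0.24, adjusted p = 0.0218, limma). Pak3, a p21-activated kinase of dendritic spines, had one at or under 0.00136 FPKM at E18 and at 9.76 and 8.54 FPKM at P5 (adjusted p = 0.0344, limma). A variant of Prkacb, a catalytic subunit of protein kinase A, went from 26.0 and 31.0 to 60.9 and 69.7 FPKM (log2 change 1.17, SE 0.14, adjusted p = 0.0334, limma). Among those lower at P5 were variants of the RNA-binding genes Raly (11.1 and 8.78 to 0.00375 and 0.642 FPKM), Ncl (5.31 and 6.22 to 0.574 and 1.03 FPKM) and Hnrnpk, and of Srrm3, a regulator of neuronal microexons (2.91 and 2.65 to 0 and 0.260 FPKM).

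**Figure D3:**
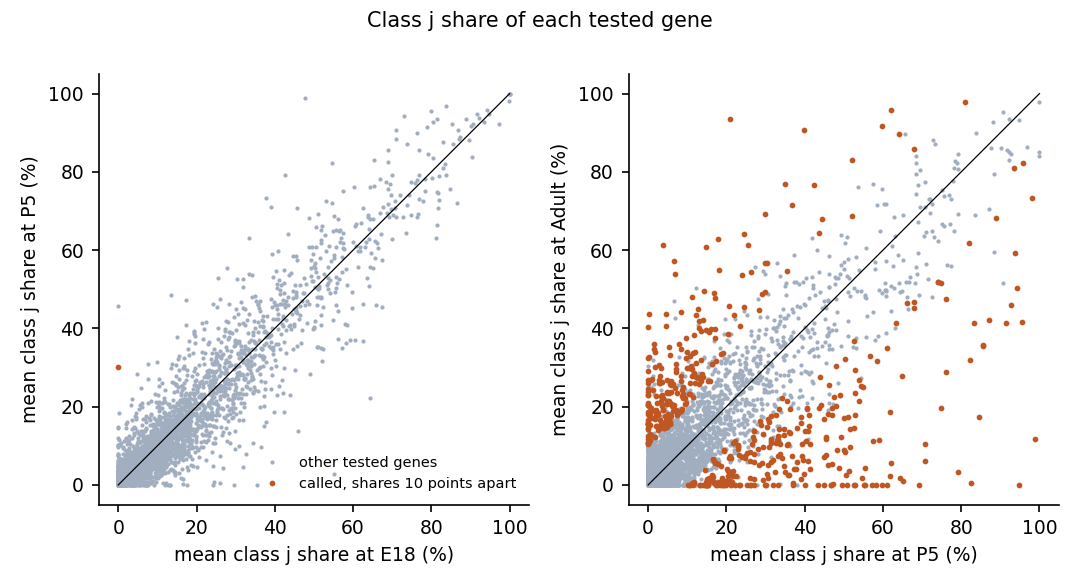
Mean class j share of each of 3367 genes (%), E18 against P5 on the left and P5 against Adult on the right; orange points passed the ratio test and have shares at least 10 points apart that do not overlap, and the line marks equal shares. There is 1 orange gene on the left and 503 on the right.

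Between P5 and Adult, 503 of 3367 genes (14.9%) passed the test with shares that did not overlap between the ages and lay at least 10 points apart in the direction of the ratio; 233 had a higher share in Adult (6.92% of tested genes) and 270 a lower one (8.02%). Between E18 and Adult there were 447 (13.3%), 196 higher (5.82%) and 251 lower (7.45%). The ratio test alone called 896 genes between P5 and Adult (26.6%; 487 higher and 409 lower) and 796 between E18 and Adult (23.6%; 410 higher and 386 lower). These comparisons share the Adult libraries. The ratio alone is not used for direction here, because with 1 FPKM added to each sum it follows the gene's own level where class j is near 0; in 50 called genes of each comparison the ratio and the share moved opposite ways, and in 106 and 114 the gene was under 5 FPKM at 1 of the ages. Scaled to TPM, the split for Adult against P5 was 611 higher and 334 lower by ratio alone, and 254 and 255 with shares 10 points apart. The ratio count was 382 without P5 library a and 506 without P5 library b, and for Adult against E18 it was 274 without E18 replicate 1 and 259 without E18 replicate 2. The counts with shares 10 points apart were then 259, 334, 195 and 187.

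In most of these genes, the classes differed in opposite directions. Selection by ratio and share favours such genes, and the directions were not counted over all tested genes. Of the 233 genes with a higher share in Adult than at P5, 166 had more class j and less class =, 49 had more of both and 18 less of both. Of the 270 with a lower share, 175 had less class j and more class =, 27 more of both and 68 less of both. Class j became the majority in both libraries of the later age, having been the minority in both of the earlier, in 22 genes between P5 and Adult and in 12 between E18 and P5. It lost the majority in 49 and 15. These directions of level are on the FPKM scale, on which the median class j isoform differed by -0.03 (log2) between Adult and P5; on the TPM scale the median was -0.60. Of 3115 class j isoforms, 572 were higher in Adult than at P5 and 655 lower (39.4%, against 43.3% of all isoforms) by FPKM, and 312 and 1194 by TPM. The balance of rises and falls in level thus depends on the scaling. A gene's share does not, but the ratio test does through the added 1 FPKM. With shares 10 points apart, 233 genes were called higher and 270 lower by FPKM, and 254 and 255 by TPM.

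Among genes named by the size of the change, the 8 with the largest rise of the ratio from P5 to Adult were Gnb1, Srsf2, Cpne4, Akap7, Ube2j1, Mtmr1, Ube2g1 and B4galt2, and all 8 calls held under every alternative tried. Srsf2, an SR protein that promotes exon inclusion, had a class j isoform 1120 bases longer than its nearest transcript. It was at 0.271 and 0.973 FPKM at E18, 0.274 and 0.466 at P5, then 53.3 and 75 in Adult, and its share was under 0.52% in every younger library and 26.6% and 39.0% in Adult (log2 ratio change 5.87, SE 0.40, adjusted p = 0.000323, limma). The gene as a whole was between 160 and 200 FPKM at all ages. The class j isoform of Gnb1, the beta subunit of rod transducin and of other G proteins, was at or under 0.619 FPKM in younger libraries and at 133 and 16.2 FPKM in Adult, with shares of 31.9% and 9.99% (log2 ratio change 6.24, SE 0.62, adjusted p = 0.00136). Rod markers were likewise higher in Adult replicate 1 than in replicate 2 (7426 and 1030 FPKM); their part was not tested.

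In the other genes of this group, the higher share went with more class j, with less class =, or with both. Akap7, an anchoring protein of protein kinase A, had 6.5 to 8.41 FPKM of class j in the younger libraries and 13.3 and 10.2 in Adult, while the gene went from 182 to 253 FPKM to 19.4 and 18.8 FPKM. Its share was 2.79% to 3.96% before and 68.6% and 54.1% in Adult (log2 ratio change 5.15, SE 0.35, adjusted p = 0.000323, limma). In Mtmr1, a myotubularin lipid phosphatase, the share was 48.5% and 15.9% at E18, 22.5% and 19.4% at P5, then 93.6% and 93.5% in Adult. The E18 libraries were far apart for this gene. The ubiquitin-conjugating enzyme Ube2g1 had a class j isoform at or under 0.00527 FPKM before and at 5.35 and 7.11 FPKM in Adult, or 25.3% and 28.4% of the gene. Cpne4, a copine that binds membranes in response to calcium, had shares of at most 1.31% before and of 33.3% and 54.3% in Adult, where the gene was at 8.35 and 7.4 FPKM. The galactosyltransferase B4galt2 had at most 0.413% before and 20.9% and 16.6% in Adult.

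The 8 largest falls were Abhd17a, Vdac2, Cpe, Sbk1, Psap, Maz, Pgam5 and Surf4, and 7 of the calls held under every alternative. The exception was Psap, the precursor of the saposins, whose isoform was seen at P5 only (24.0% and 4.89% of the gene); its adjusted p was 0.0031 as tested and 0.0563 with the share tested as an arcsine square root. Abhd17a, a depalmitoylase that acts on synaptic proteins, had the largest fall. Its class j isoform (a length difference of -101 bases from the nearest transcript) was at 31.3 and 31.5 FPKM at E18, 32.9 and 36.5 at P5, then at 0 and 0.00176 in Adult, while the gene stayed at 32.0 to 39.4 FPKM. The share went from 98.0% and 91.5%, and 96.7% and 92.7%, to 0% and 0.00540% (log2 ratio change -8.80, SE 0.46, adjusted p = 0.000125, limma). Vdac2, a channel of the outer mitochondrial membrane, had shares of 66.0% and 72.1% at E18, 87.6% and 77.3% at P5, then 0.814% and 0.00336% in Adult, at a gene level of 101 to 148 FPKM throughout (log2 ratio change -8.49, SE 0.44, adjusted p = 0.000125, limma).

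For the rest of this group the class j isoforms were likewise near 0 in both Adult libraries. Surf4, a cargo receptor of the secretory pathway, had shares of 53.0% to 57.9% before and at most 0.0241% in Adult, and Maz, a zinc-finger transcription factor, 29.3% to 56.4% before and at most 0.00130% after. Sbk1, a serine/threonine kinase, had 41.8% to 48.4% and then at most 0.595%, with the gene at 154 to 242 FPKM before and 56.6 and 64.0 in Adult. In Pgam5, a mitochondrial phosphatase, the share was 40.4% to 77.4% before and 0% after; P5 library a held a second isoform at 16.9 FPKM that the other libraries lacked. Cpe, carboxypeptidase E of the neuropeptide pathway, had shares of 6.72% and 5.60% at E18 and 18% and 12.6% at P5, and was listed at 0 in Adult. A class j isoform at 1 FPKM or more in all 4 younger libraries and under 0.1 FPKM in both Adult libraries was found in 117 of 5467 cases (2.14%), and the reverse in 127 (2.32%); among class = isoforms these were 1.0% and 1.42%. Besides those named, the former included Dbn1, the actin-binding protein drebrin (39.9 to 50.5 FPKM before and listed at 0 in Adult), and Actr3, a subunit of the Arp2/3 complex (30.2 to 62.9 FPKM before and listed at 0), both chosen after their values were seen.

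**Figure D4:**
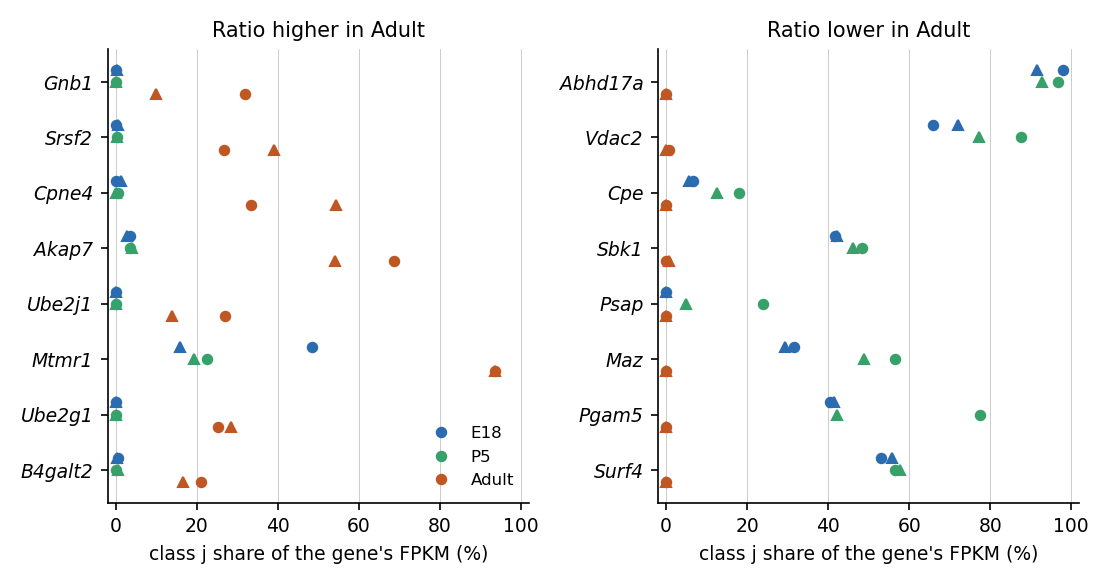
Class j share (x axis, % of the gene's FPKM) of the 8 genes with the largest rise of the variant ratio from P5 to Adult (left) and the 8 with the largest fall (right); circles are replicate 1 or library a and triangles replicate 2 or library b. Adult shares of the left group range from 9.99% to 93.6%, and those of the right group lie under 0.82%.

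Some isoforms near 0 in all younger libraries differed greatly between the Adult libraries. Those of Epb41l2 (36.4 and 3.05 FPKM), Rabgef1 (20.6 and 2.86) and Cngb1, a subunit of the rod photoreceptor channel (13.9 and 2.69), were several times higher in Adult replicate 1, which also had the higher rod markers. Those of Slc6a9, the glycine transporter of amacrine cells and glia (20.5 and 43.8), Klc1 (65.2 and 70.6) and Epb41l3, a membrane skeleton protein (18 and 20.6), were not. These genes, other than Klc1 and Slc6a9, were chosen after their values were seen, and the part of rods or amacrine cells was not tested.

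Between E18 and Adult, the largest rises and falls were largely in genes already described, and 7 of 8 calls in each direction held under every alternative. Colgalt1, a collagen galactosyltransferase, had shares of 0.562% and 2.24% at E18, 16.8% and 5.69% at P5, then 50.1% and 45.8% in Adult. Rasal2, a Ras GTPase-activating protein, went the other way with 60.7% and 57.6%, 43.3% and 30.8%, and 0.00197% and 0.981%. In both genes the P5 libraries lay between those of the other ages. Ddah2, an enzyme that degrades methylated arginine, rose to 15% and 9.84% from 0.724% and 0.726%, at a gene level that was 196 FPKM in both E18 libraries and 8.05 and 9.73 in Adult. Ttyh1, a membrane protein also found in glia, had 18.4% and 11.3% at E18 and was listed at 0 for class j in Adult, where the gene was at 112 and 100 FPKM. Fblim1, Sag and Rp1 also met the rule, but the first was at or under 0.425 FPKM as a gene in Adult and the others, both photoreceptor genes, at or under 0.539 FPKM at E18, so their shares rest on near-zero sums.

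Genes of the splicing machinery were described as lists, since their own transcripts are known to be spliced in alternative ways. The lists and the rule were chosen with earlier results of these data known. Of the SR proteins and hnRNPs (41 genes, 24 tested), 4 had a higher and 1 a lower ratio in Adult than at P5 (20.8%, against 26.6% of all tested genes), with a median log2 ratio change of 0.17 against 0.13 over all genes. The ratio fell for Taf15, an RNA-binding protein (10.2% and 31.8%, then 1.84% and 0.0540%; adjusted p = 0.0162). The Taf15 call ended without P5 library b (adjusted p = 0.0687), Adult replicate 1 (0.0587) or Adult replicate 2 (0.0629). Srsf5 rose from E18, from 0.414% and 0.552% to 6.24% and 8.32% in Adult (log2 ratio change 3.33, SE 0.47, adjusted p = 0.0039, limma), and its P5 libraries were at 9.25% and 3.63%.

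Neuronal splicing regulators (31 genes, 11 tested) had 4 higher ratios and 0 lower ones in Adult against P5 (36.4%, against 26.6% of all tested genes). Against E18 there were 3 higher and 0 lower (27.3%, against 23.6% of all tested genes). With shares 10 points apart there were 2 against P5 and 1 against E18, as for 14.9% and 13.3% of all tested genes. Mbnl2, a muscleblind protein that drives mature exon choice, had shares of 0% to 0.990% before and 24.6% and 14.6% in Adult (log2 ratio change from P5 2.54, SE 0.35, adjusted p = 0.00326, limma). Celf2 went from 2.89% and 3.03% at P5 to 11.7% and 14.2% (adjusted p = 0.00822, and 0.0513 without P5 library a), and Celf4 from a listed 0 in all younger libraries to 2.49% and 2.07%. Srrm3 was low at P5 alone, with 12.2% and 10.9% at E18, 0% and 1.02% at P5, then 15.6% and 14.9% in Adult. Its ratio did not pass the test for P5 against E18 (log2 ratio change -2.02, adjusted p = 0.0727, limma). For Adult against P5 it did (log2 ratio change 2.36, SE 0.28, adjusted p = 0.00225, limma). The median over the list was 0.03, below the 0.13 of all genes.

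In the core spliceosome and its kinases (52 genes, 27 tested), 5 ratios were higher and 1 lower in Adult against P5 (22.2%, against 26.6% of all tested genes), and 4 and 1 against E18 (18.5%, against 23.6%). Clk1, a kinase that phosphorylates SR proteins, had a class j isoform 1308 bases longer than its nearest transcript. It stood at 6.97 and 8.59 FPKM at E18, 13.1 and 13.5 at P5, then 30.2 and 30.5 in Adult, and the share of both class j isoforms went from 5.54% and 5.80% through 11.1% and 10.9% to 19.0% and 20.1%. The ages did not overlap in this gene, and the rise from E18 to Adult passed the test (log2 ratio change 1.91, SE 0.26, adjusted p = 0.0034, limma). Against P5 its adjusted p was 0.0373, and leaving out any 1 library gave 0.0555 to 0.109. Son, a scaffold of nuclear speckles, went from 24.6% and 25.1% at E18 and 31.2% and 26.9% at P5 to 47.9% and 49.7% (adjusted p = 0.0161 against P5, and 0.0719 without P5 library b). Prpf4b, a kinase of the spliceosome, went from 3.22% and 3.07% at P5 to 11.8% and 21.2% (adjusted p = 0.0082, and 0.0539 without P5 library a). The SR protein kinase Srpk1 rose to 4.93% and 15.7% from 0.646% and 0.873% (adjusted p = 0.017, and 0.0969 or 0.0687 without P5 library a or b).

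**Figure D5:**
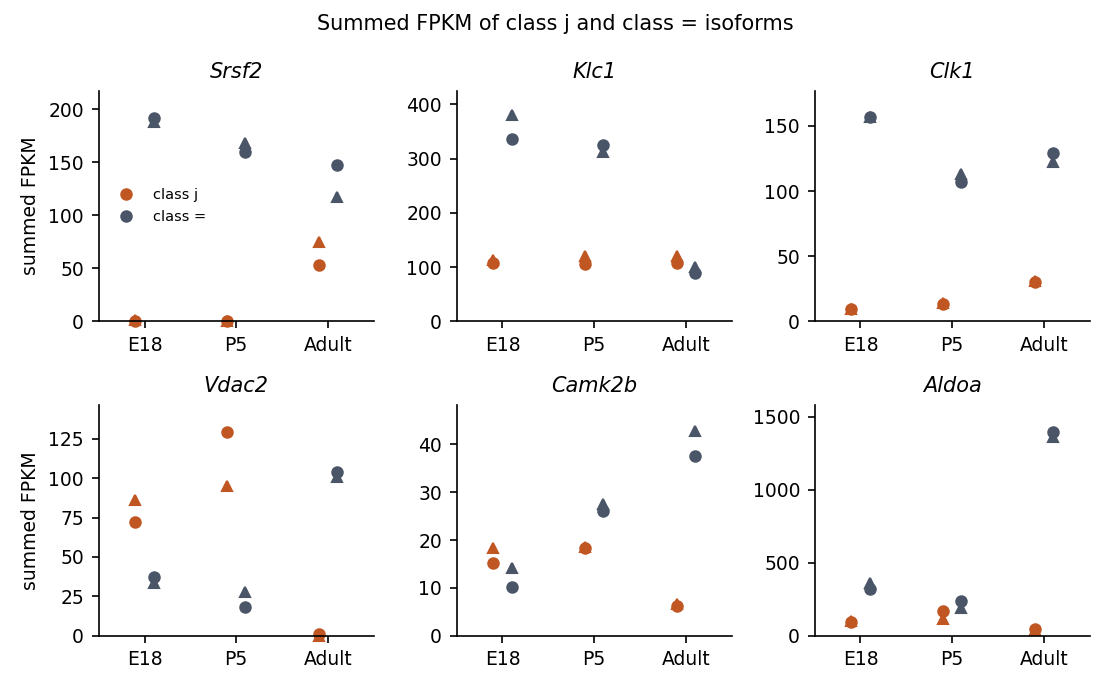
Summed FPKM (y axis) of class j isoforms (orange) and class = isoforms (dark blue-grey) at each age (x axis) for Srsf2, Klc1, Clk1, Vdac2, Camk2b and Aldoa; circles are replicate 1 or library a and triangles replicate 2 or library b. Class j of Srsf2 is near 0 before Adult, and that of Vdac2 near 0 in Adult.

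Genes known for exon switches in neurons (82 genes, 47 tested) had 10 higher and 9 lower ratios in Adult against P5 (40.4%, against 26.6% of all genes), and 8 and 7 against E18 (31.9%, against 23.6%). With shares 10 points apart there were 9 in each comparison, against 14.9% and 13.3% of all tested genes. Camk2b, the beta subunit of the calcium/calmodulin-dependent kinase of synapses, had class j levels of 15.2 and 18.4 FPKM at E18, 18.3 and 18.5 at P5, then 6.22 and 6.56 in Adult. Its share fell from 60.1% and 56.6% through 41.3% and 40.2% to 14.2% and 13.3%, with no overlap between ages (Adult against E18: log2 ratio change -2.93, SE 0.25, adjusted p = 0.000764, limma). Camk2g, the gamma subunit, had shares of 18.4% and 24.1%, 36.5% and 46.2%, and 8.17% and 12.7% (Adult against P5: log2 ratio change -2.36, SE 0.34, adjusted p = 0.00404). Ctnnd2, the delta-catenin of synapses, fell from 13.5% and 7.80% at E18 to 0.0697% and 0% (adjusted p = 0.0039). Rising genes included Dnm2, a dynamin of endocytosis, from 2.10% and 1.85% at P5 to 16.4% and 19.4% (adjusted p = 0.00502), and Aplp2, a relative of the amyloid precursor protein, from 38.8% and 45.9% to 74.8% and 78.4% (adjusted p = 0.00502).

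Synapse and excitability genes (53 genes, 16 tested) had 3 higher and 4 lower ratios in Adult against P5 (43.8%, against 26.6% of all tested genes) and 5 and 4 against E18 (56.3%, against 23.6%). In each comparison 6 of them had shares 10 points apart, as did 14.9% and 13.3% of all tested genes. Kcnc1, a potassium channel of fast-firing neurons, had a class j isoform at 2.99 to 3.83 FPKM, 29.7% to 36.9% of the gene, in all younger libraries and listed at 0 in Adult, where the gene was higher at 35.0 and 43.9 FPKM (log2 ratio change from P5 -4.49, SE 0.28, adjusted p = 0.000274, limma). Cacna2d1, a calcium channel subunit, fell from 86.3% and 88.1% at P5 to 44.0% and 40.1% (log2 ratio change -2.82, SE 0.28, adjusted p = 0.00142). Vamp2, a synaptic vesicle SNARE, kept a class j level of 1.90 to 3.96 FPKM at all ages while the gene went from 27.5 to 35.5 FPKM to 117 and 147 in Adult, and its share was 6.89% to 12.6% before and 2.37% and 2.33% in Adult.

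Other lists are given by their counts in Adult against P5, where 26.6% of all tested genes were called by ratio (14.5% higher and 12.1% lower) and 14.9% had shares 10 points apart. Of 28 tested cytosolic ribosomal protein genes (80 in the list), 11 had a higher ratio in Adult than at P5 and 0 a lower one (39.3%), but 0 had shares 10 points apart. For Rpl10a, class j was listed at 0 in both P5 libraries and was at 1.41 and 0.952 FPKM in Adult, with shares of 1.21% and 1.22%, while the gene went from 177 and 171 FPKM at P5 to 117 and 78.1 in Adult. Rpl7a, chosen after its values were seen, had shares of 7.68% and 7.22% at P5, then 18.4% and 15.2% in Adult (log2 ratio change 1.33, adjusted p = 0.0152, limma). Cytoskeleton and axon growth genes (44 genes, 14 tested) had 7 higher and 2 lower ratios against P5 (64.3%), with 2 of them 10 points apart. Klc1, described above, belongs to this list, and Tmsb10, a thymosin that binds actin monomers, had a class j share of at most 1.52%. Noncoding and snoRNA host genes (29 genes, 9 tested) had 1 higher and 0 lower (11.1%): Miat, a nuclear noncoding RNA, had shares of 10.5% and 12.5% at P5, then 25.5% and 19.3% in Adult, where the gene was at 8.25 and 8.73 FPKM (adjusted p = 0.0109, limma, and 0.0627 without P5 library a).

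Among marker genes of the cell types, 6 RGC markers could be tested, and 2 ratios were higher and 1 lower in Adult than at P5; over all tested genes, 26.6% were called and 14.9% had shares 10 points apart. Rbpms2, an RNA-binding protein enriched in RGCs, had class j levels of 18.1 to 47.0 FPKM in the younger libraries and 0.0115 and 0.479 FPKM in Adult, with shares of 26.2% and 19.7%, 38% and 34.2%, and 0.0610% and 5.04% (adjusted p = 0.00886 against P5, and 0.0668 without P5 library a). For Rbpms and Isl2 the ratio was higher in Adult while the mean share was lower than at P5, at gene levels of 15.9 and 7.45 FPKM and of 4.52 and 1.60 FPKM. All 6 tested rod markers were called against P5, 5 of them lower. The higher one was Gnb1, the 1 with shares 10 points apart in the direction of the ratio, whose gene was at 346 to 389 FPKM in the younger libraries. Sag, Rp1 and Gnat1 were at or under 0.813 FPKM as genes before, and the share of Sag, rod arrestin, was 0.895% and 1.54% in Adult. Of 5 tested Müller glia and astrocyte markers 1 ratio was higher and 3 lower, and 0 had shares 10 points apart. Both bipolar cell markers tested had lower ratios, as did the progenitor marker tested, also with 0 having shares 10 points apart. For the bipolar marker Pcp2 the share went the other way, from a listed 0 in all younger libraries, where the gene was at or under 0.233 FPKM, to 14.1% and 8.71% in Adult. Tested as an arcsine square root, the Pcp2 share rose (adjusted p = 0.00904 against P5, limma). Of 4 amacrine markers, 1 was called, Gad1 (adjusted p = 0.0191), with adjusted p = 0.0953 without P5 library a and 0.0754 without Adult replicate 1.

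The kinds of class j isoform were also compared in level. Of 2232 tested isoforms that share a start group with a class = isoform, 18.8% were higher in Adult than at P5 and 19.8% lower; of 883 with a start group of their own, 17.3% were higher and 24.1% lower, against 19.2% and 24.1% of all isoforms. By FPKM, isoforms with the exact length of 1 exon left out summed to 500 to 597 in the younger libraries and to 554 and 540 in Adult. All isoforms together summed to 485423 to 550826 FPKM before and to 800484 and 854713 in Adult, so such sums depend on the scaling. Of 88 tested isoforms with the exact length of 1 exon left out, 15.9% were higher and 30.7% lower in Adult than at P5. The shares of all isoforms were 19.2% and 24.1%. Isoforms with the length of 1 exon added summed to 236 to 313 FPKM before and 214 and 207 in Adult. Those with the length of 1 intron kept were highest at E18, with 488 and 499 FPKM, against 308 and 384 at P5, then 376 and 352 in Adult. By FPKM, of 111 such isoforms tested, 8 were higher and 37 lower in Adult than at E18 (33.3% lower). Of all isoforms, 44.7% were called in this comparison and 26.8% were lower. Between E18 and P5, 0 of them were higher at the later age and 1 was lower.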

How the data were processed

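RGC libraries of mice at 3 ages, 2 per age, were compared. Per the submitters' processing notes, reads were mapped to mm10 with HISAT2 and FPKM per isoform were estimated with Cufflinks and Cuffdiff by the authors; versions, strand use and the scaling between libraries are not given in the sources used here. The deposited FPKM table also gives class code, nearest transcript and isoform length, and 0.0001 stands in it for 0. It holds no counts, so no depth, interval for counting error or count test was possible. Another 9 columns of per-sample values match no sample described here and were not used. The P5 columns share 1 header, so their order carries no replicate number.

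Class j and class = FPKM were summed per gene symbol in each library for genes with a mean of at least 5 FPKM; 18 symbols cover more than 1 gene identifier. The log2 ratio of the sums, each plus a pseudocount of 1 FPKM, was fitted over all 6 libraries with limma 3.58.1 (R 4.3.3, trended moderation, 3 residual degrees of freedom), as was log2(FPKM + 1) of isoforms with a mean of at least 1 FPKM. Tests are two-sided with Benjamini-Hochberg adjustment over all genes or isoforms at 0.05. An exact permutation test of 2 against 2 libraries cannot go below p = 0.333. On simulated data (3367 genes, 200 changed by a log2 of 2), the fit recovered 60% for Adult against P5 and 65% for Adult against E18, with 6 and 5 false calls; of changes of 1 it recovered 0%. Lengths were compared with the GENCODE transcripts of GRCm38.

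Named were, per comparison, the 8 largest rises and 8 largest falls of the ratio among called genes with shares that do not overlap and differ by 10 points, leaving out predicted genes and small RNAs; the 15 class j isoforms of highest mean; and the 4 members of each list with the smallest p. The members and the 15 lists were chosen with earlier results of these data known. Alternatives changed the pseudocount, filters, denominator, scaling, scale of the share and libraries. A few named genes are not reported here.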

Additional observations from a re-analysis of the deposited data

How the results depend on the processing

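With 2 libraries per age and no counts, single libraries weigh on the number of calls. Leaving out 1 library at a time gave 0 to 1 genes with a changed ratio between E18 and P5, 382 to 877 between P5 and Adult and 259 to 787 between E18 and Adult. With shares 10 points apart the ranges were 0 to 1, 259 to 524 and 187 to 481, and for class j isoforms 0 to 1, 859 to 1117 and 636 to 1219. For P5 against E18, changed ratios numbered 2 with a class j mean of at least 1 FPKM (a setting chosen after seeing the data), 7 with a gene mean of at least 20 FPKM, 56 with a pseudocount of 5 FPKM, and 0 with a pseudocount of 0.1 FPKM or only the 4 libraries of these ages. The counts with shares 10 points apart were 2 at 20 FPKM, 18 with pseudocount 5, and 0 in the other 2 settings; class j isoforms were 0 with 4 libraries, 26 with pseudocount 0.1 and 82 by TPM. For Adult against P5, changed ratios were 596 at 20 FPKM and 1391 with pseudocount 5, and for Adult against E18 498 with pseudocount 0.1, 1391 with pseudocount 5 and 529 with the arcsine square root of the share. With shares 10 points apart there were 265 and 249 at 20 FPKM, where fewer genes were tested. Class j isoforms with a mean of at least 5 FPKM gave 374 in both Adult comparisons, again from fewer tested. A replicate block was possible only for Adult against E18, as P5 has no numbers. It gave 556 changed ratios, 362 of them with shares 10 points apart, and 1011 class j isoforms. The deviations of the libraries numbered 1 correlated by 0.0173 over genes. A correlation from 1 pair of libraries cannot decide whether samples of the same number share more than the number.

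The median share at E18 was 9.16% with no filter, 5.82% at 20 FPKM and 9.57% by FPKM times length; at P5 the last 2 gave 5.11% and 8.71%, and in Adult the 3 gave 9.29%, 6.21% and 9.70%. The share of all FPKM was 3.53%, 3.68% and 2.37% at E18, P5 and Adult over isoforms of 300 bases or more, and 6.13%, 6.10% and 5.74% by FPKM times length. Of 2076 alternative values for 137 calls on named genes, 1855 kept direction and call, 205 kept only the direction and 16 turned. As arcsine square roots of the share, the turned values for Adult against P5 were 0.1617 for Car14, 0.0075 for Glul, 0.1882 for Gnat1, -0.0528 for Isl2, 0.3423 for Pcp2, -0.0538 for Rbpms, 0.0915 for Rlbp1 and 0.0356 for Rp1. For Adult against E18 they were 0.2093 for Car14, 0.0241 for Glul, -0.0678 for Isl2, 0.3423 for Pcp2, -0.0004 for Prdm4 and 0.0915 for Rlbp1. Of these 14, both values of Pcp2 passed the test in the turned direction (adjusted p = 0.00904 and 0.00944). The Clu ratio was -0.1785 with pseudocount 5, and that of Rbpms -0.2406 with pseudocount 0.1 (Adult against P5). The cause of these changes was not tested.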
